A study of Homo sapiens with 20 samples.

Results

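The genes described here are 37 genes of cholesterol and fatty acid synthesis and their control, of the 57500 Ensembl genes listed in each of the 20 count tables. They were taken from a fixed list of names and found by gene symbol, and all 37 passed the filter on low counts in every comparison. By role they fall into 19 sterol synthesis enzymes and 5 genes of SREBP control (SREBF1, SREBF2, SCAP, INSIG1 and INSIG2). The others are 5 genes of sterol transport and export (STARD4, NPC1, ABCA1, ABCG1 and MYLIP) and 8 fatty acid synthesis genes (ACLY, ACSS2, ACACA, FASN, ELOVL6, SCD, FADS1 and FADS2). The libraries are RNA-seq of NTERT cells, a line of human keratinocytes immortalized with telomerase, in 4 groups of 5 samples: WT and GCN2KO cells, each unwounded or after HDW. GCN2 is the eIF2 kinase encoded by EIF2AK4, and GCN2KO cells are an early-passage pool of CRISPR/Cas9-edited cells rather than a clone. Per the study's methods a guide to exon 2 or to exon 12 was used, and which of them gave the sequenced cells was not given in the sources used here. HDW is high-density wounding, in which pipet tips on a multichannel pipettor were drawn across a confluent, differentiated sheet in perpendicular directions, so that many cells lay near a wound edge. RNA was taken 6 h later, and all groups were grown in low calcium EpiLife medium and differentiated with serum and calcium before wounding. The study's methods speak of biological replicates, but how the cultures behind the samples of a group were kept apart was not given in the sources used here, so each p-value measures the spread between these samples.

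Cholesterol and fatty acids are built from cytosolic acetyl-CoA. The sterol branch runs through mevalonate, the isoprenoid diphosphates and squalene to lanosterol, and then through a series of demethylations, reductions and an isomerization to cholesterol. Transcription of these enzymes is driven by SREBP proteins, the products of SREBF1 and SREBF2, which SCAP carries from the endoplasmic reticulum to the Golgi for cleavage when sterols are low, whereas INSIG proteins hold SCAP back when sterols are plentiful. A second sterol sensor, the LXR receptors, turns on the exporters ABCA1 and ABCG1 and the ubiquitin ligase MYLIP when sterols accumulate. In the epidermis, cholesterol and fatty acids are made by keratinocytes and are needed for the lipid barrier of the cornified layer.

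Promoter sequence is shown for 6 of the genes, chosen after their values were seen: SREBF2, which held the sterol regulatory element searched for, and 5 genes that the results turn on. Each stretch lies in GRCh38.p14 before the RefSeq transcript start nearest the annotated 5′ end and was cut where the GENCODE gene begins: SREBF2 at chr22:41832855-41833104 (plus strand), IDI1 at chr10:1049120-1049369 (minus strand), MSMO1 at chr4:165327419-165327666 (plus strand), NSDHL at chrX:152830813-152830966 (plus strand), INSIG1 at chr7:155297628-155297775 (plus strand) and STARD4 at chr5:111512591-111512785 (minus strand). They read 5′ to 3′ on the strand of the gene, and capitals mark matches to TCACNCCAC (a sterol regulatory element, to which SREBP proteins bind) and to CCAAT or its complement ATTGG (the box bound by NF-Y, a factor that acts beside SREBP).
SREBF2: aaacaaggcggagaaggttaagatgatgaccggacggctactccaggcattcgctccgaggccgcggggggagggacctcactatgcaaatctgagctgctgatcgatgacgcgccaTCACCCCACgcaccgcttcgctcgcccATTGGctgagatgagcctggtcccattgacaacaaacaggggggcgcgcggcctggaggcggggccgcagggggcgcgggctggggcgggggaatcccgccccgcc
IDI1: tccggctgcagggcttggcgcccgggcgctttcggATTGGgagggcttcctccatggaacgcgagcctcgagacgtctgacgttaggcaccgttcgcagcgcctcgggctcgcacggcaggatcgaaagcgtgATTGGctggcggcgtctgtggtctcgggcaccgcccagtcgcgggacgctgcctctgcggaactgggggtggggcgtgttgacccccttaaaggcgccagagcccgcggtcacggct
MSMO1: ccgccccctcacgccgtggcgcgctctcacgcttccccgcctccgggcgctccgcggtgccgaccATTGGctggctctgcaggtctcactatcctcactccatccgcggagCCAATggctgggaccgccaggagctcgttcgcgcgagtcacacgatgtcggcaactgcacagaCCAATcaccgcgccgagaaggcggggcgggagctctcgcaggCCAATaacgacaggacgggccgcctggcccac
NSDHL: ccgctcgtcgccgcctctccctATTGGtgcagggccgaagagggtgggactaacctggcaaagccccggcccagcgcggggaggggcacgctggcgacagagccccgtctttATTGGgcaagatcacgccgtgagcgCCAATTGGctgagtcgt
INSIG1: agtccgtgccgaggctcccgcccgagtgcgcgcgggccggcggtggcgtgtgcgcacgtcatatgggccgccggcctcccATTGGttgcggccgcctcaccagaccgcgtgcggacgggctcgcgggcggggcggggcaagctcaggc
STARD4: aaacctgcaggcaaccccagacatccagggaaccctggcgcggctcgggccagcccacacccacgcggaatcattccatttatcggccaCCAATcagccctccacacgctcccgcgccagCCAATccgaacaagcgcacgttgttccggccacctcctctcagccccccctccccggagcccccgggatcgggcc

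The motif count used RefSeq windows from 250 bases before to 50 bases after a start, of which 32 of the 37 genes had 43 (23 genes with 1 window, 7 with 2 and 2 with 3), searched on both strands. CCAAT was found in 26 of the 43 windows (60.5%, 22 genes), against 34.6% of all 35116 windows. CACGTG, the palindromic E-box that SREBP and other factors can bind, was found in 6 of the 43 windows (5 genes: SCAP, INSIG1, ABCA1, SC5D and LSS), against 7.26% of all 35116 windows. TCACNCCAC was found in 1 of the 43 windows, that of SREBF2 at 133 bases before the start, against 1.13% of all 35116 windows. The composite element TGATGNAAN that C/EBP and ATF factors share was found in 0 of the 43 windows, against 3.61% of all 35116 windows. MSMO1 carried 4 CCAAT boxes and the NSDHL stretch shown above also 4, of which 2 overlap in the letters CCAATTGG. In whole windows, CCAAT was matched in MVK at -210, -157, -94, -79 and -46 bases from the start. The whole NSDHL window held as many, at -228, -138, -113, -110 and -84. Whether the number of boxes went with the changes below was not tested. No window was matched for ACAT2, FDFT1, SQLE, FASN or ABCG1, windows of a gene can overlap, and a match is a description of letters and not of a bound site.

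The libraries held 14083504 to 34611570 counts, with 14083504 to 30505904 in WT unwounded and 29320528 to 34611570 in WT HDW libraries. Levels are given as normalized read counts, that is counts divided by the TMM effective library size and multiplied by its mean over the 20 libraries. EIF2AK4 (ENSG00000128829, chr15:39934115-40035591, plus strand), the edited gene, was at 4404, 4152, 4555, 4287 and 4379 in the WT unwounded and 4303, 4222, 4181, 4282 and 3980.2 in the WT HDW samples. It was at 806, 859.9, 935, 906 and 962 in the GCN2KO unwounded and 935, 809.8, 858, 951 and 814 in the GCN2KO HDW samples. Every GCN2KO sample thus lay below every WT sample (log2 fold change -2.28 unwounded and -2.27 after HDW), in the direction the labels state. Across all genes, GCN2KO unwounded replicates 2 and 4 had r of 0.991 and 0.994 with their closest library of another group, in each case a GCN2KO HDW library. These lay above their mean r of 0.990 and 0.992 with their own group. The counts that rest on them, and the genes whose call or value moved, are also given without both. Leaving out the unwounded libraries most like HDW ones favours larger HDW differences in GCN2KO cells, so calls gained in that way are not independent support. All 6 keratinocyte markers were present, with summed levels of 429859 to 584213. The 5 of 6 differentiation markers that were matched summed to 6841 to 9349 in WT and to 13032 to 22330.4 in GCN2KO samples, the largest part in GCN2KO samples being IVL (involucrin). Of the 4 tested, IVL was a DE gene higher in GCN2KO unwounded cells (log2 fold change 1.83), KRT1 a DE gene lower (-1.06), and KRT10 (0.23) and TGM1 (-0.24) did not pass, with a median of -0.01. After HDW, IVL and KRT10 were higher (1.96 and 0.28) and KRT1 and TGM1 lower (-0.83 and -0.32) in GCN2KO cells. The part of these differences in the genotype results below was not tested. Markers of other cells were far lower. Of 5 melanocyte markers (sums of 56.5 to 100.3) TYR and SOX10 were at 0, and of 5 leukocyte markers 2 or 3 were at 0 in each group. Endothelial and fibroblast markers summed to 1.53 to 19.6 and 664 to 1039. The leukocyte sums, mostly CD14, were 1576 to 1813 in WT unwounded, 837 to 981 in WT HDW and 369 to 1208 in GCN2KO samples, and their part in the results was not tested.

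Levels between genes were compared per kb of annotated exon, and in WT unwounded cells they spanned SCD at 2204 ± 245 normalized counts per kb (mean ± SD, n = 5 here and below) to INSIG1 at 45.0 ± 7.37. SCD, the desaturase that makes monounsaturated fatty acids, and FASN, the fatty acid synthase (1353 ± 80.1 per kb), led the order, and each was separated from its neighbour by more than the spread of its samples. SREBF2 (924 ± 39.6), ACLY (909.9 ± 36.2), MSMO1 (884 ± 48.6) and FDFT1 (835 ± 21.3) followed, and neighbours among these 4 overlapped in their samples. By this measure the lowest of the sterol synthesis enzymes were MVK, mevalonate kinase, at 63.6 ± 3.58 per kb and TM7SF2, a sterol reductase, at 49.5 ± 6.98 per kb. The length is the union of all annotated exons, 9018 bases for MVK and 1002 for PMVK, so the order depends on annotation. In normalized counts MVK (549 to 626) was near PMVK (596 to 626) in WT unwounded samples. In GCN2KO unwounded cells SCD was again highest (3425 ± 346 per kb), MSMO1 was next (1454 ± 219), and FASN stood at rank 7 (768 ± 143). STARD4 moved from rank 14 (336 ± 42.5 per kb) in WT to rank 4 (966 ± 238 per kb) in GCN2KO unwounded cells.

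**Figure D1:**
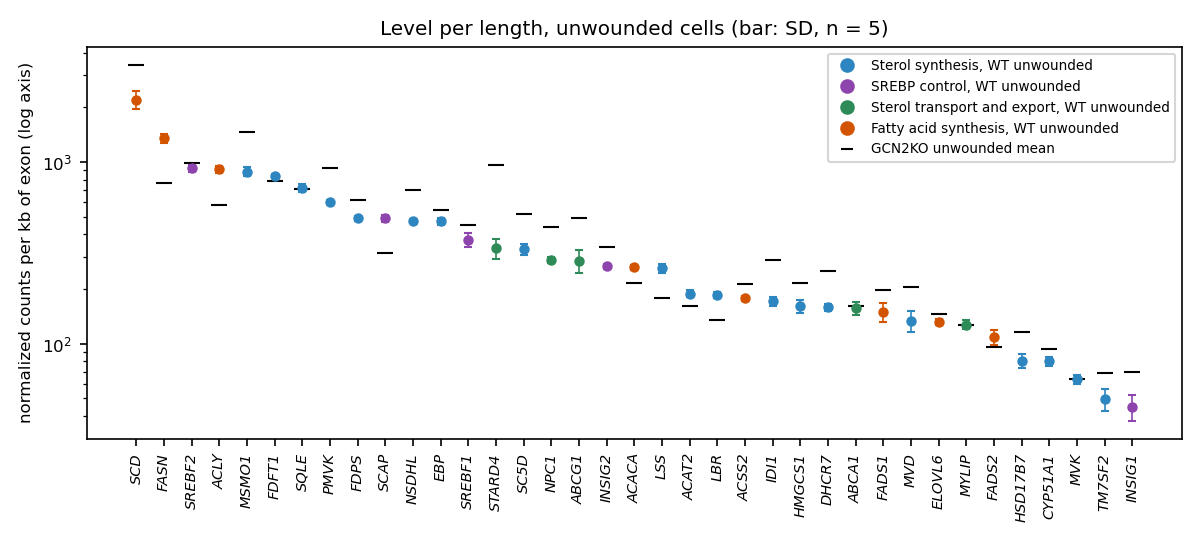
Normalized counts per kb of exon (log axis) for the 37 genes in WT unwounded cells, ordered by level and coloured by role (points are means and bars SD, n = 5), with the GCN2KO unwounded mean as a black dash. Levels ran from 2204 (SCD) to 45.0 (INSIG1) per kb, and the black dash lies well above the point for STARD4 and below it for FASN.

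The first comparison asks how GCN2KO cells differed from WT cells before wounding. Sterol synthesis genes were mostly higher in GCN2KO cells and sterol transport genes were led by a 2.88-fold higher STARD4. Fatty acid synthesis genes were split at shares near those of all genes tested, with SCD higher and FASN and ACLY lower. A gene is said to have passed, or to be higher or lower, when its adjusted p in edgeR's quasi-likelihood test (Benjamini-Hochberg, over all genes tested) was at most 0.05. A DE gene also had a log2 fold change of 1 or more in either direction. Amounts by which a gene is said to be higher or lower, to rise or to fall are log2 fold changes. Of the 37 genes, 22 were higher (59.5%, against 33.4% of the 15348 genes tested) and 7 lower (18.9%, against 33.1%), and 8 did not pass. The median log2 fold change was 0.28, against 0.00 over all genes tested. In 22 genes, of which ELOVL6 did not pass, the GCN2KO samples were all above the highest WT sample (against 26.3% of genes tested) and in 5 all were below the lowest (27.0%). STARD4 was the only DE gene of the 37, where 16.4% of the genes tested were DE genes. In bulk RNA, more transcript per cell and more cells of a kind cannot be told apart.

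Of the 19 sterol synthesis genes 13 were higher, 3 lower and 3 did not pass, with a median log2 fold change of 0.43. IDI1 (ENSG00000067064, chr10:1039152-1049119, minus strand), which isomerizes isopentenyl diphosphate, was at 723, 719, 686, 793 and 766 normalized counts in WT and 1050.5, 1109.8, 1519, 1142 and 1358 in GCN2KO samples (log2 fold change 0.75, SE 0.0938, adjusted p = 3.02e-06). MSMO1 (ENSG00000052802, chr4:165327667-165343164, plus strand), the methylsterol monooxygenase, was at 2317, 2568, 2443, 2645 and 2629 in WT and 3798, 3585, 5019, 3737 and 4589.5 in GCN2KO samples (log2 fold change 0.72, SE 0.0884, adjusted p = 2.37e-06). For both enzymes every GCN2KO sample lay above every WT sample, and GCN2KO replicates 3 and 5 were the highest. Among the early enzymes, PMVK, which phosphorylates phosphomevalonate, was higher by 0.63 (SE 0.0750, adjusted p = 1.80e-06). MVD, which decarboxylates the product, was higher by 0.62 (SE 0.0972, adjusted p = 3.40e-05) and HMGCS1, which makes HMG-CoA, by 0.43 (SE 0.0817, adjusted p = 2.23e-04). FDPS, farnesyl diphosphate synthase, was higher by 0.35 (SE 0.0742, adjusted p = 6.18e-04). ACAT2, the cytosolic thiolase of the first step, was lower, at a log2 fold change of -0.21 (SE 0.0851, adjusted p = 0.0389). MVK, FDFT1 (squalene synthase) and SQLE (squalene epoxidase) did not pass, with log2 fold changes of -0.09 to 0.02.

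Most enzymes that act on the sterol ring were higher as well. SC5D, a sterol desaturase, was higher by 0.66 (SE 0.0828, adjusted p = 3.19e-06). DHCR7, the reductase that ends the pathway, was higher by 0.66 (SE 0.0809, adjusted p = 2.48e-06) and HSD17B7, a sterol ketoreductase, by 0.53 (SE 0.139, adjusted p = 0.00328). NSDHL, a sterol dehydrogenase, was higher by 0.57 (SE 0.0786, adjusted p = 8.90e-06) and TM7SF2 by 0.47 (SE 0.101, adjusted p = 7.21e-04). CYP51A1, the lanosterol demethylase, and EBP, a sterol isomerase, had smaller values of 0.23 and 0.21. LSS, lanosterol synthase, was lower, at a log2 fold change of -0.54 (SE 0.0860, adjusted p = 4.04e-05). LBR, a sterol reductase that also anchors lamin B, had a log2 fold change of -0.45 (SE 0.0612, adjusted p = 7.22e-06). The enzymes of the branch thus did not move together: LSS lay below WT in all 5 samples, SQLE before it did not pass, and MSMO1 and NSDHL after it were higher. FDPS and HSD17B7 have near-identical pseudogene copies, so their counts are uncertain. CYP51A1, EBP, HMGCS1 and ACAT2 share 74.1%, 36.4%, 37.7% and 22.2% of their exonic bases with another gene, and their counts are uncertain to that extent.

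Among the genes of SREBP control 3 of 5 were higher and SCAP was lower. SCAP (ENSG00000114650, chr3:47413681-47477126, minus strand) was at 3269, 3064, 2973, 3148 and 2921 in WT and 2182, 2246, 1659, 2160.1 and 1728 in GCN2KO samples (log2 fold change -0.62, SE 0.0874, adjusted p = 1.08e-05), with no overlap between the groups. INSIG1 (ENSG00000186480, chr7:155297776-155310235, plus strand), itself an SREBP target, was at 141, 184, 140.1, 201 and 156 in WT and 233, 233, 299, 293 and 222 in GCN2KO samples (log2 fold change 0.64, SE 0.124, adjusted p = 2.65e-04), again with no overlap. INSIG2 was higher by 0.36 (SE 0.0714, adjusted p = 3.42e-04) and SREBF1 by 0.28 (SE 0.0725, adjusted p = 0.00311), whereas SREBF2 differed by 0.10 (SE 0.0797, adjusted p = 0.277).

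Among the 37 genes, the one that differed most between the genotypes was a gene of sterol transport. STARD4 (ENSG00000164211, chr5:111496033-111512590, minus strand), a cytosolic carrier that moves sterol between membranes, was at 1618, 2118, 1674, 2085 and 2046 in WT unwounded and 4011, 4573, 6568, 5085 and 7207 in GCN2KO unwounded samples. Each GCN2KO sample was above every WT sample, and GCN2KO replicates 3 and 5 were again the highest (log2 fold change 1.53, SE 0.139, adjusted p = 8.07e-08). ABCG1 (ENSG00000160179, chr21:42199689-42297244, plus strand), a sterol exporter and LXR target, was at 1471, 1939.6, 1531, 2035 and 1801 in WT and 3187, 3217, 2822, 2973 and 2843 in GCN2KO samples (log2 fold change 0.78, SE 0.0875, adjusted p = 8.91e-07), with no overlap. NPC1, which releases cholesterol from lysosomes, was higher by 0.61 (SE 0.0757, adjusted p = 2.97e-06). ABCA1 and MYLIP, which LXR also turns on, did not pass: ABCA1, a sterol exporter, differed by 0.04 (SE 0.127, adjusted p = 0.798) and MYLIP by -0.0046 (SE 0.0715, adjusted p = 0.959).

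The 8 fatty acid synthesis genes gave 3 higher, 3 lower and 2 that did not pass. The shares of 37.5% each way were near the 33.4% higher and 33.1% lower of all genes tested. FASN (ENSG00000169710, chr17:82078338-82098294, minus strand) was at 13426, 12662, 12041, 13249 and 11699 in WT and 8067, 8077, 5505, 8234 and 5922 in GCN2KO samples (log2 fold change -0.81, SE 0.109, adjusted p = 6.21e-06). ACLY (ENSG00000131473, chr17:41866917-41930542, minus strand), which makes cytosolic acetyl-CoA from citrate, was at 4569, 4595, 4909, 4973 and 4647 in WT and 3314, 3133, 2874, 3007 and 2817 in GCN2KO samples (log2 fold change -0.64, SE 0.0633, adjusted p = 2.01e-07). Every GCN2KO sample was below every WT sample for both, and GCN2KO replicates 3 and 5 were the lowest for each of FASN, ACLY, ACACA and SCAP. Acetyl-CoA carboxylase, ACACA, was lower as well, at a log2 fold change of -0.28 (SE 0.117, adjusted p = 0.0421), with overlapping samples. SCD was higher by 0.64 (SE 0.0889, adjusted p = 9.35e-06). FADS1, a desaturase of polyunsaturated fatty acids, was higher by 0.41 (SE 0.0797, adjusted p = 2.62e-04) and ACSS2, which makes acetyl-CoA from acetate, by 0.27 (SE 0.0667, adjusted p = 0.00201). ELOVL6, which lengthens palmitate, and FADS2 did not pass, with log2 fold changes of 0.14 (SE 0.0612, adjusted p = 0.0529) and -0.17 (SE 0.0852, adjusted p = 0.0916). ACLY, ACACA and FASN, which lead from citrate to palmitate, were thus lower and the desaturases SCD and FADS1 higher in the same samples. Desaturases did not all move alike: FADS2, also a desaturase, did not pass (-0.17), and SCD5, outside the 37 genes and given below, was lower.

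Of the 29 genes that passed, 4 lost the call when a single library was left out. ACACA did not pass without any of WT unwounded replicates 1, 2, 3, 4 or 5 or GCN2KO unwounded replicates 1, 3 or 5 (adjusted p 0.0587 to 0.115). ACAT2 lost the call without WT unwounded replicates 2, 3 or 5 or GCN2KO unwounded replicates 1, 2 or 4 (adjusted p 0.0505 to 0.110). For EBP the call was lost without WT unwounded replicates 2, 4 or 5 or GCN2KO unwounded replicates 3 or 5 (adjusted p 0.0603 to 0.0793). Leaving out WT unwounded replicate 3 did so for CYP51A1 (adjusted p 0.0506). With DESeq2, the study's tool, in place of edgeR, ACAT2 and ACACA did not pass (adjusted p = 0.0560 and 0.0674). Without GCN2KO unwounded replicates 2 and 4, an alternative added after seeing the data, 23 genes were higher and 7 lower. ACAT2 then lost its call (-0.10, adjusted p = 0.247), FADS2 (-0.25, adjusted p = 0.0211) and ELOVL6 (0.17, adjusted p = 0.0363) gained one, and the log2 fold change of acetyl-CoA carboxylase, ACACA, was -0.51, adjusted p = 3.45e-05.

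**Figure D2:**
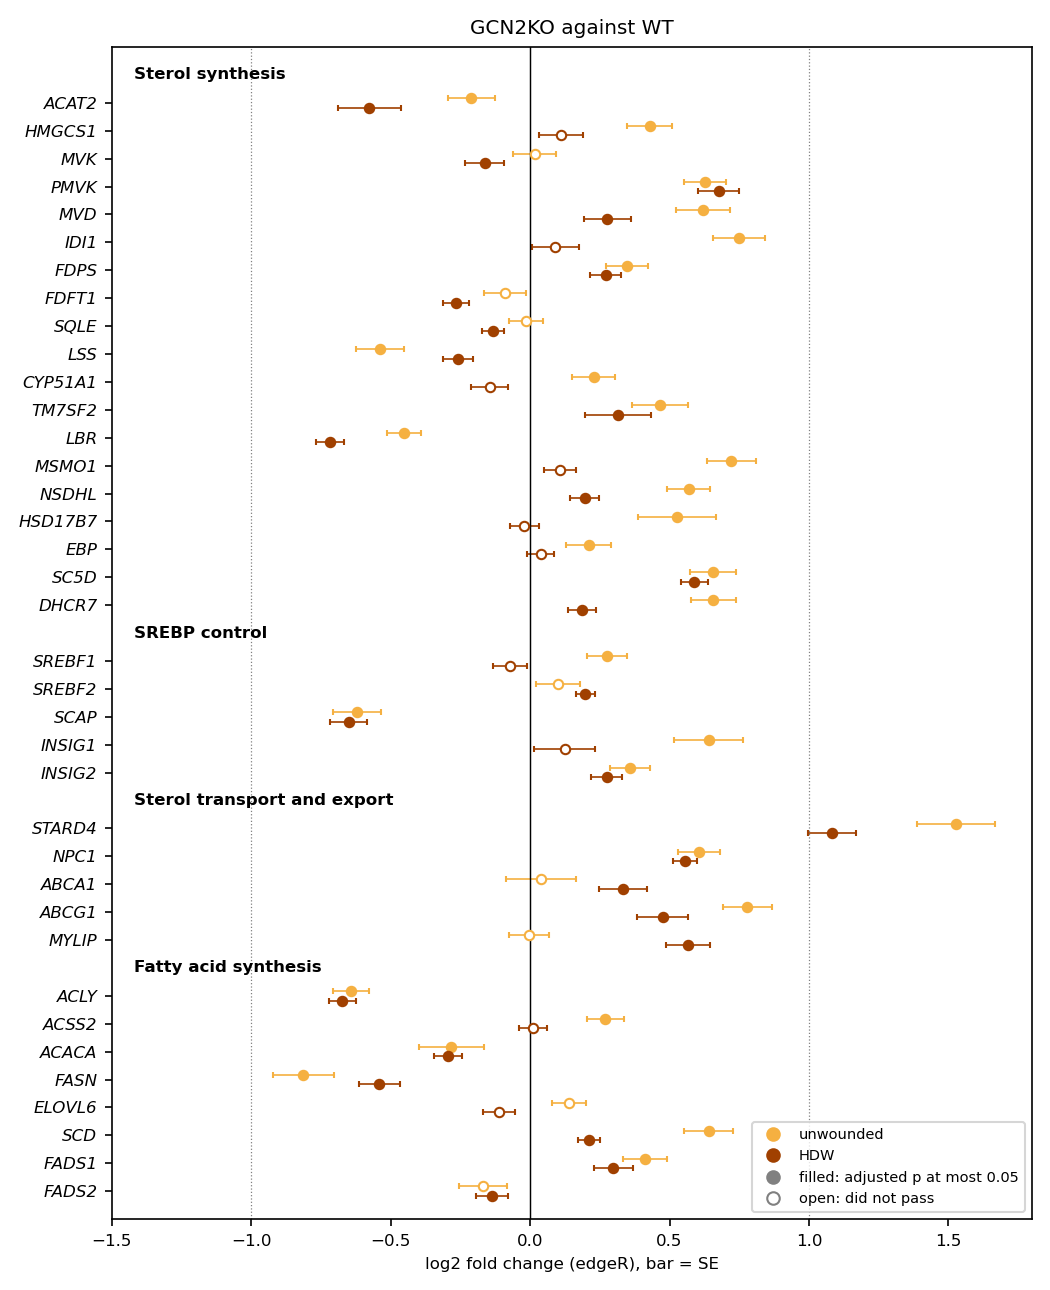
Log2 fold change of GCN2KO against WT for each of the 37 genes by role, unwounded (yellow) and after HDW (brown), with bars of 1 SE (edgeR). Filled points passed at an adjusted p of at most 0.05, and dotted lines mark -1 and 1. STARD4 (1.53 and 1.08) is the only gene beyond a dotted line, and ACLY, SCAP and LBR lie left of 0 in both states.

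The second comparison asks how the genotypes differed after HDW. The sterol transport and export genes were all higher in GCN2KO cells and the fatty acid synthesis genes gave 4 lower and 2 higher. The sterol synthesis genes were divided, at shares near those of all genes tested. Of the 37 genes 16 were higher (43.2%, against 35.9% of the 15855 genes tested) and 11 lower (29.7%, against 35.8%), with 10 that did not pass. The median log2 fold change was 0.11, against 0.00 over all genes tested, and it was 0.047 without WT HDW replicate 2 and 0.056 without GCN2KO HDW replicate 1. The GCN2KO samples were all above the highest WT sample in 10 genes (27.9% of genes tested) and all below the lowest in 7 (29.3%). STARD4 was again the only DE gene, where 14.9% of genes tested were DE genes.

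All 5 genes of sterol transport and export passed in the same direction. STARD4 was at 2453, 2328, 2443, 2475 and 2514 in WT HDW and 6055, 5173, 5145, 5566 and 3945 in GCN2KO HDW samples (log2 fold change 1.08, SE 0.0859, adjusted p = 7.07e-08), and the lowest GCN2KO sample, replicate 5, still lay above every WT sample. MYLIP (ENSG00000007944, chr6:16129086-16148248, plus strand), the ubiquitin ligase that marks lipoprotein receptors for degradation, was at 188, 237, 200.0, 197 and 175 in WT HDW and 305, 292, 304, 286 and 286 in GCN2KO HDW samples (log2 fold change 0.57, SE 0.0792, adjusted p = 1.84e-05). The groups did not overlap for either gene. NPC1 was higher by 0.56 (SE 0.0424, adjusted p = 4.93e-08), ABCG1 by 0.48 (SE 0.0915, adjusted p = 3.22e-04) and ABCA1 by 0.33 (SE 0.0858, adjusted p = 0.00302), the last with overlapping samples.

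Of the 19 sterol synthesis genes 7 were higher (36.8%) and 6 lower (31.6%), with a median log2 fold change of 0.09. These shares were near the 35.9% and 35.8% of all genes tested. PMVK (ENSG00000163344, chr1:154924740-154936719, minus strand), phosphomevalonate kinase, was at 571, 616, 621, 526 and 595 in WT HDW and 1041, 942, 972, 956 and 771 in GCN2KO HDW samples (log2 fold change 0.68, SE 0.0743, adjusted p = 1.69e-06). SC5D (ENSG00000109929, chr11:121292681-121313410, plus strand) was at 2486, 2122, 2172, 2293 and 2173 in WT HDW and 3251, 3276, 3345, 3422 and 3624 in GCN2KO HDW samples (log2 fold change 0.59, SE 0.0488, adjusted p = 1.05e-07). LBR (ENSG00000143815, chr1:225401502-225428925, minus strand) was at 1250.2, 1225, 1202, 1342 and 1263 in WT HDW and 739.8, 730.3, 786, 732 and 826 in GCN2KO HDW samples (log2 fold change -0.72, SE 0.0487, adjusted p = 1.66e-08). None of these 3 genes overlapped between the genotypes, and LBR was the sterol synthesis gene with the lowest log2 fold change. ACAT2 was lower as well, at a log2 fold change of -0.58 (SE 0.113, adjusted p = 3.73e-04). LSS had a log2 fold change of -0.26 (SE 0.0534, adjusted p = 5.88e-04) and FDFT1 of -0.26 (SE 0.0471, adjusted p = 1.64e-04). Smaller log2 fold changes were those of SQLE, at -0.13 (SE 0.0399, adjusted p = 0.00825), and MVK, at -0.16 (SE 0.0692, adjusted p = 0.0472). The enzymes around squalene (FDFT1, SQLE and LSS) were thus all lower. FDPS was higher by 0.27 (SE 0.0552, adjusted p = 5.27e-04) and MVD by 0.28 (SE 0.0849, adjusted p = 0.00942). TM7SF2, NSDHL and DHCR7 were higher by 0.32, 0.20 and 0.18 (adjusted p = 0.0274, 0.00358 and 0.00443). IDI1, MSMO1, HSD17B7 and HMGCS1, each higher in GCN2KO cells before wounding, had log2 fold changes of 0.09, 0.11, -0.02 and 0.11 after HDW and did not pass.

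In SREBP control, SCAP was at 3334, 3401, 3344, 3205 and 3249 in WT HDW and 1895, 2151, 2159, 1841 and 2475 in GCN2KO HDW samples (log2 fold change -0.65, SE 0.0661, adjusted p = 7.84e-07), so that WT and GCN2KO samples did not overlap in either state. SREBF2 was higher by 0.20 (SE 0.0335, adjusted p = 1.05e-04) and INSIG2 by 0.27 (SE 0.0544, adjusted p = 4.18e-04), while INSIG1 (0.12) and SREBF1 (-0.07) did not pass. ACLY was at 5996, 5435, 5691, 5877 and 5704 in WT HDW and 3310.3, 3754, 3588, 3416 and 3914 in GCN2KO HDW samples (log2 fold change -0.67, SE 0.0482, adjusted p = 2.69e-08). FASN was lower, at a log2 fold change of -0.54 (SE 0.0750, adjusted p = 1.68e-05), as were acetyl-CoA carboxylase, ACACA, at -0.29 (SE 0.0515, adjusted p = 1.43e-04) and FADS2 at -0.14 (SE 0.0573, adjusted p = 0.0455). Unlike FADS2, the desaturases FADS1 and SCD were higher, by 0.30 (SE 0.0698, adjusted p = 0.00152) and 0.21 (SE 0.0394, adjusted p = 2.67e-04). Counting both states, 13 of the 37 genes were higher in GCN2KO cells unwounded and after HDW (35.1%, against 26.7% of the 15238 genes tested in both). Of the 37, 7 were lower in both (18.9%, against 26.9%) and 0 passed in opposite directions (against 1.94%). The 7 lower in both states were ACAT2, LSS, LBR, SCAP, ACACA, ACLY and FASN. Of these, ACAT2 and ACACA depended on single libraries before wounding and did not pass there with DESeq2, and ACAT2 depended also on GCN2KO unwounded replicates 2 and 4, as given above. Of the 27 genes that passed after HDW, 3 lost the call without a single library. FADS2 did not pass without any of WT HDW replicates 1, 2 or 3 or GCN2KO HDW replicates 1, 2 or 4 (adjusted p 0.0727 to 0.122). MVK lost the call without WT HDW replicates 1, 3, 4 or 5 or GCN2KO HDW replicates 1, 2 or 4 (adjusted p 0.0657 to 0.114), and also with DESeq2 (adjusted p = 0.0531). For TM7SF2 the call was lost without WT HDW replicates 1, 4 or 5 or GCN2KO HDW replicate 2 (adjusted p 0.0581 to 0.0888).

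**Figure D3:**
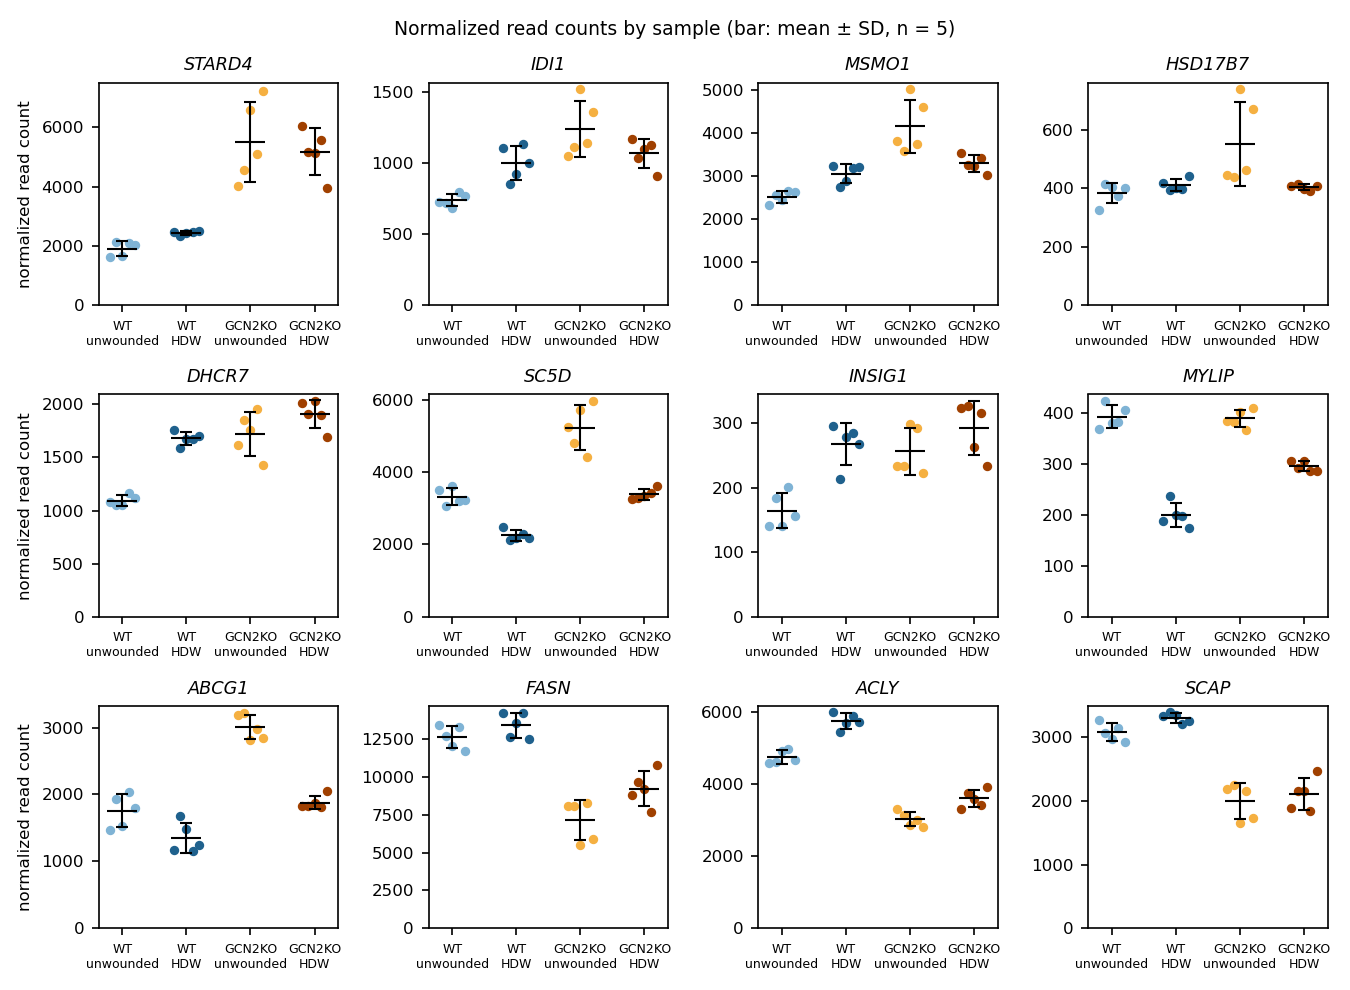
Normalized read counts (linear axis from 0) of 12 of the genes in each of the 20 samples, with the mean and SD of each group of 5 as a black bar. STARD4 and ABCG1 sit higher in the GCN2KO unwounded than in the WT unwounded samples, FASN, ACLY and SCAP sit lower, and IDI1, MSMO1 and HSD17B7 have their highest mean in the GCN2KO unwounded group (1236, 4146 and 552).

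The third comparison asks what HDW changed in WT cells. At 6 h after HDW, 10 of the 19 sterol synthesis and 4 of the 8 fatty acid synthesis genes rose. Of the sterol transport and export genes, MYLIP, ABCA1 and ABCG1 fell and STARD4 and NPC1 rose. Of the 37 genes 20 were higher (54.1%, against 26.1% of the 15348 genes tested) and 5 lower (13.5%, against 25.2%). The median log2 fold change was 0.10, against 0.00 over all genes tested, and 0 of the 37 were DE genes by edgeR or DESeq2 (4.17% of genes tested). In edgeR 26 of 37 had an unadjusted p under 0.05, as did 8679 of the 15348 genes tested. The HDW samples were all above the highest unwounded sample in 16 genes (19.2% of genes tested) and all below the lowest in 4 (17.7%). The WT unwounded group also held the shallowest library, and the part of depth in these results was not tested.

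INSIG1 was at 141, 184, 140.1, 201 and 156 in WT unwounded and 296, 213, 278, 285 and 267 in WT HDW samples (log2 fold change 0.69, SE 0.112, adjusted p = 1.03e-04). SREBF1 rose by 0.24 (SE 0.0628, adjusted p = 0.00559) and SCAP by 0.10 (SE 0.0369, adjusted p = 0.0285). INSIG2 rose by 0.08 (SE 0.0323, adjusted p = 0.0397), and SREBF2 did not pass (-0.00054). DHCR7 (ENSG00000172893, chr11:71428193-71452868, minus strand) was at 1083, 1056, 1048, 1166 and 1113 in WT unwounded and 1759, 1589, 1668, 1674 and 1705 in WT HDW samples (log2 fold change 0.61, SE 0.0386, adjusted p = 6.21e-09). Neither INSIG1 nor DHCR7 overlapped between the states. The sterol synthesis genes gave 10 higher, 2 lower and 7 that did not pass (median 0.12). IDI1 rose by 0.43 (SE 0.0725, adjusted p = 1.36e-04) and SQLE by 0.41 (SE 0.0404, adjusted p = 6.39e-07). MVD rose by 0.40 (SE 0.0674, adjusted p = 1.44e-04) and CYP51A1 by 0.37 (SE 0.0606, adjusted p = 1.17e-04). MSMO1 and LBR rose by 0.27 and 0.24 (adjusted p = 3.06e-04 and 1.26e-04), so that steps from the isoprenoids to the late sterols were among those higher. HMGCS1, NSDHL and EBP had the smaller increases of 0.21, 0.16 and 0.12 (adjusted p = 0.00570, 0.00913 and 0.0488). SC5D went the other way, from 3514, 3075, 3623, 3192 and 3217 to 2486, 2122, 2172, 2293 and 2173 (log2 fold change -0.57, SE 0.0523, adjusted p = 3.52e-07), and FDFT1 also fell (log2 fold change -0.18, SE 0.0367, adjusted p = 6.14e-04).

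Sterol transport and export genes split by kind. MYLIP was at 368, 423, 379, 381 and 406 in WT unwounded and 188, 237, 200.0, 197 and 175 in WT HDW samples (log2 fold change -0.97, SE 0.0788, adjusted p = 8.76e-08), so that every HDW sample was below every unwounded sample. ABCA1 (ENSG00000165029, chr9:104781006-104928155, minus strand) was at 1638, 1802, 1671, 1994 and 1796 in WT unwounded and 1112, 1524, 1304, 1138 and 1187 in WT HDW samples (log2 fold change -0.51, SE 0.0775, adjusted p = 5.32e-05), also without overlap. ABCG1 had a log2 fold change of -0.38 (SE 0.107, adjusted p = 0.00711) with overlapping samples, since WT HDW replicate 2 was at 1685. STARD4 and NPC1 rose instead, by 0.35 (SE 0.0645, adjusted p = 3.19e-04) and 0.24 (SE 0.0348, adjusted p = 3.47e-05). Among fatty acid synthesis genes, ELOVL6 (ENSG00000170522, chr4:110045846-110199199, minus strand) was at 998, 919, 960.1, 929 and 989 in WT unwounded and 1597, 1339, 1379.8, 1591 and 1497 in WT HDW samples (log2 fold change 0.62, SE 0.0523, adjusted p = 1.24e-07). SCD rose by 0.43 (SE 0.0590, adjusted p = 2.25e-05) and ACLY by 0.27 (SE 0.0359, adjusted p = 1.35e-05). Acetyl-CoA carboxylase, ACACA, rose by 0.42 (SE 0.0368, adjusted p = 2.10e-07), and FASN, ACSS2, FADS1 and FADS2 had log2 fold changes of -0.06 to 0.08 and did not pass. Of the 25 genes that passed, 3 lost the call without a single library. EBP did not pass without any of WT unwounded replicates 1, 2, 4 or 5 or WT HDW replicates 1, 3, 4 or 5 (adjusted p 0.0548 to 0.113). INSIG2 lost the call without WT unwounded replicates 1, 3, 4 or 5 or WT HDW replicates 1, 3, 4 or 5 (adjusted p 0.0644 to 0.0855). For SCAP the call was lost without WT unwounded replicates 2, 3 or 5 or WT HDW replicates 1, 2 or 3 (adjusted p 0.0508 to 0.0886). The NSDHL call was lost in a fit of all 20 samples (0.16, adjusted p = 0.0686). With DESeq2 the calls of EBP and INSIG2 were lost (adjusted p = 0.0732 and 0.0919). With library size alone in place of TMM, MYLIP became a DE gene (log2 fold change -1.01).

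**Figure D4:**
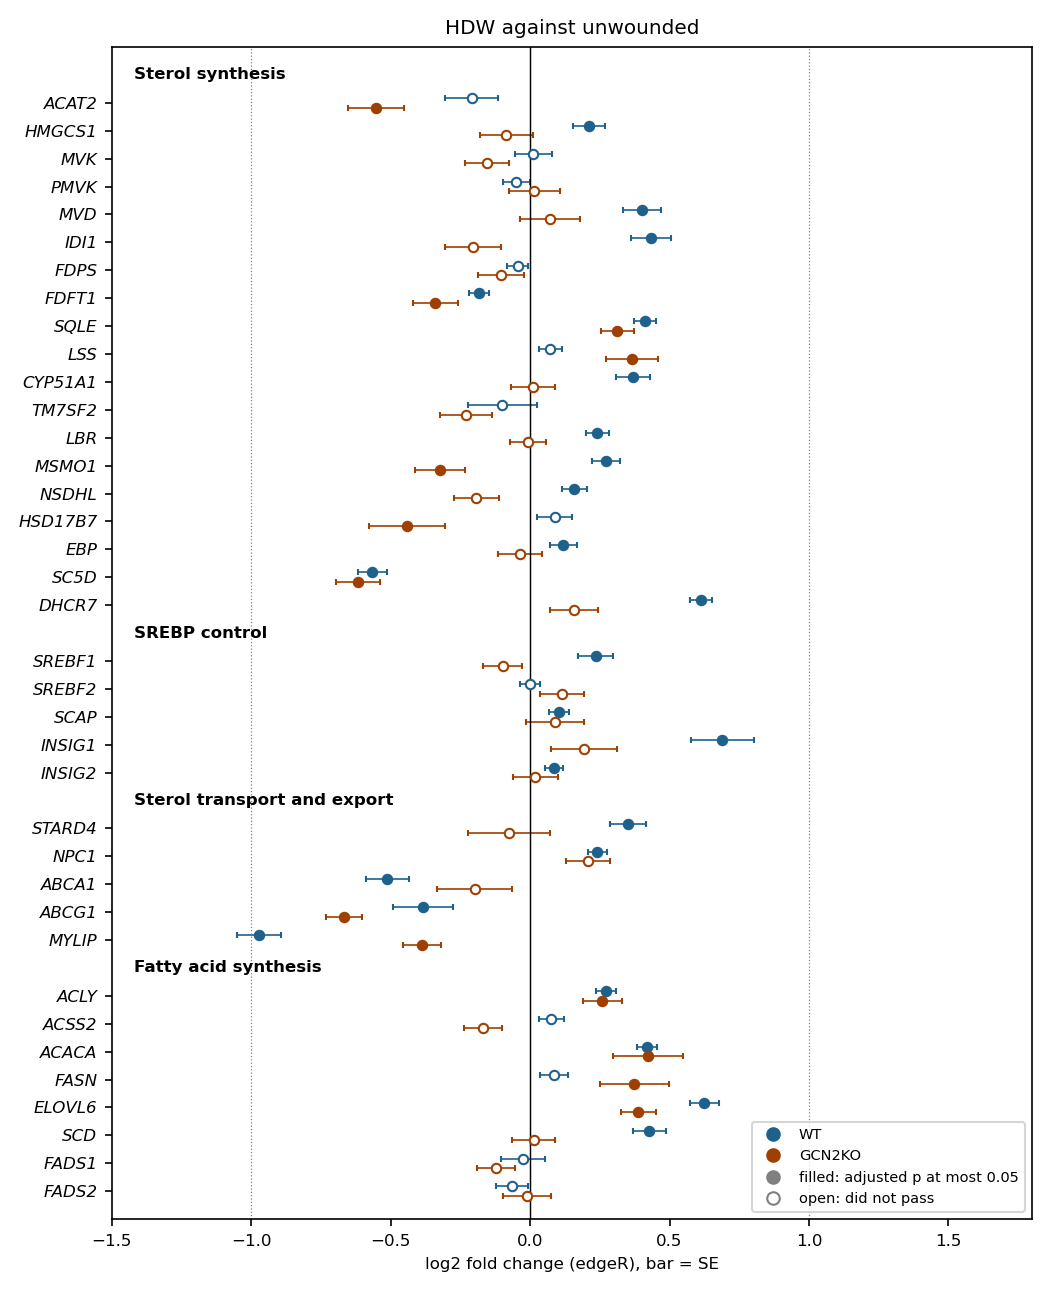
Log2 fold change of HDW against unwounded cells for each of the 37 genes by role, in WT (blue) and GCN2KO (brown) cells, with bars of 1 SE (edgeR). Filled points passed at an adjusted p of at most 0.05, and dotted lines mark -1 and 1. WT points lie right of 0 for INSIG1 (0.69), ELOVL6 (0.62) and DHCR7 (0.61) and left for MYLIP (-0.97), and 24 of the GCN2KO points are open.

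The fourth comparison asks what HDW changed in GCN2KO cells, where 13 genes passed. Fatty acid synthesis genes gave 4 higher and 0 lower, while sterol synthesis genes gave 2 higher and 5 lower and 0 of the 5 genes of SREBP control passed. Of the 37 genes 6 were higher (16.2%, against 11.9% of the 15791 genes tested) and 7 lower (18.9%, against 10.8%), with a median log2 fold change of -0.04 against 0.00 over all genes tested. DE genes numbered 0 of 37 by edgeR or DESeq2 (0.671% of genes tested), and 17 of 37 had an unadjusted p under 0.05, as did 6018 of the 15791 genes tested. The HDW samples were all above the highest unwounded sample in 2 genes (7.52% of genes tested) and all below the lowest in 7 (7.65%).

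ELOVL6 was at 1078, 1027, 1138, 1022 and 1006 in GCN2KO unwounded and 1267, 1449.7, 1367, 1426 and 1342 in GCN2KO HDW samples (log2 fold change 0.39, SE 0.0626, adjusted p = 0.00139), with no overlap. ACACA (ENSG00000278540, chr17:37084992-37406836, minus strand) was at 2760.3, 3746, 2219, 3079 and 2235 in GCN2KO unwounded and 3516, 3792, 3686, 3502 and 4175 in GCN2KO HDW samples (log2 fold change 0.42, SE 0.126, adjusted p = 0.0280). FASN was at 8067, 8077, 5505, 8234 and 5922 in GCN2KO unwounded and 8789.9, 9650.5, 9196, 7652 and 10758 in GCN2KO HDW samples (log2 fold change 0.37, SE 0.123, adjusted p = 0.0422). Both overlapped between the states, ACACA through GCN2KO unwounded replicate 2 and FASN through its replicates 1, 2 and 4, which lay above the lowest HDW sample, replicate 4. ACLY rose by 0.26 (SE 0.0693, adjusted p = 0.0180), LSS by 0.37 (SE 0.0929, adjusted p = 0.0143) and SQLE by 0.31 (SE 0.0597, adjusted p = 0.00356).

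The genes that fell in GCN2KO cells after HDW were sterol genes. ABCG1 was at 3187, 3217, 2822, 2973 and 2843 in GCN2KO unwounded and 1824, 1833, 1873, 1817 and 2045 in GCN2KO HDW samples (log2 fold change -0.67, SE 0.0652, adjusted p = 5.73e-05). SC5D was at 5239, 4807, 5718, 4427 and 5951 in GCN2KO unwounded and 3251, 3276, 3345, 3422 and 3624 in GCN2KO HDW samples (log2 fold change -0.62, SE 0.0795, adjusted p = 4.13e-04). ACAT2 (ENSG00000120437, chr6:159762045-159779112, plus strand) was at 426, 391, 473, 364 and 483 in GCN2KO unwounded and 269, 264, 272, 311 and 336 in GCN2KO HDW samples (log2 fold change -0.55, SE 0.100, adjusted p = 0.00274). In each of these 3 genes every HDW sample was below every unwounded sample. HSD17B7 had a log2 fold change of -0.44 (SE 0.136, adjusted p = 0.0321) and MYLIP of -0.39 (SE 0.0680, adjusted p = 0.00235). For FDFT1 the log2 fold change was -0.34 (SE 0.0811, adjusted p = 0.0109) and for MSMO1 -0.32 (SE 0.0902, adjusted p = 0.0217). SC5D, FDFT1, MYLIP and ABCG1 were lower after HDW in both genotypes, and SQLE, ELOVL6, ACLY and ACACA were higher in both (4 genes or 10.8% each way, against 5.97% lower and 7.2% higher of the 14899 genes tested in both). MSMO1 was the only one of the 37 genes that passed in opposite directions, 0.27 in WT and -0.32 in GCN2KO cells (2.70%, against 2.17%). Of the 13 genes that passed, 5 lost the call without a single library. ACACA did not pass without any of GCN2KO unwounded replicates 1, 3 or 5 or GCN2KO HDW replicates 2, 3 or 5 (adjusted p 0.0512 to 0.0723). FASN lost the call without GCN2KO unwounded replicates 3 or 5 or GCN2KO HDW replicates 1, 2, 3 or 5 (adjusted p 0.0614 to 0.106). For HSD17B7 the call was lost without GCN2KO unwounded replicates 3 or 5 or GCN2KO HDW replicates 1, 2, 3 or 4 (adjusted p 0.0581 to 0.0889). Leaving out GCN2KO unwounded replicate 5 or GCN2KO HDW replicates 2 or 3 did so for MSMO1 (adjusted p 0.0537 to 0.0574). ACLY missed the threshold without GCN2KO HDW replicate 2 (adjusted p 0.0535). Without GCN2KO HDW replicate 2 the number higher was 3. Without GCN2KO unwounded replicates 2 and 4 there were 9 higher and 9 lower, with ACACA at 0.64, adjusted p = 2.40e-04. By their highest r, both were the GCN2KO unwounded libraries most like GCN2KO HDW ones, so that choice favours more calls.

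The fifth comparison asks whether the HDW difference itself differed between the genotypes, with the interaction term over all 20 samples. In 12 of the 37 genes the HDW difference was lower in GCN2KO than in WT cells and in 1, MYLIP, it was higher (32.4% lower against 12.5% and 2.70% higher against 11.2% of the 16536 genes tested). The median interaction was -0.17 on the log2 scale, against -0.01 over all genes tested, and 0 of the 37 passed with a value of 1 or more in either direction by edgeR or DESeq2 (3.31% of genes tested). In edgeR 19 of 37 had an unadjusted p under 0.05, as did 5873 of the 16536 genes tested. With library size alone in place of TMM, which moved the median over all genes to 0.06, 2 were higher and 8 lower, and the split over all genes went from 1851 higher and 2075 lower to 2477 and 1510.

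Sterol synthesis genes made up 7 of the 12. The share with a lower HDW difference was alike for sterol synthesis (36.8%), SREBP control (40.0%) and fatty acid synthesis genes (37.5%). Of the 5 sterol transport and export genes, the HDW difference was lower in 0 and higher in 1, MYLIP. IDI1 gave an interaction of -0.66 (SE 0.133, adjusted p = 8.82e-04): its level went from 737 ± 42.0 to 1002 ± 119.6 normalized counts with HDW in WT cells and from 1236 ± 196 to 1067 ± 102 in GCN2KO cells. MSMO1 gave -0.61 (SE 0.111, adjusted p = 2.85e-04), from 2520.5 ± 139 to 3054 ± 222 normalized counts in WT and from 4146 ± 625 to 3290.2 ± 201 in GCN2KO cells. HSD17B7 (ENSG00000132196, chr1:162790702-162812823, plus strand) gave -0.55 (SE 0.162, adjusted p = 0.0161). Its WT samples were at 328, 414, 406, 373 and 403 unwounded and 417, 396, 403, 397 and 444 after HDW. Its GCN2KO samples were at 445, 438, 740.3, 462 and 673 unwounded and 409.5, 415, 398, 391 and 409.9 after HDW, so that GCN2KO unwounded replicates 3 and 5 stood above all other samples. In IDI1 and MSMO1 too, GCN2KO unwounded replicates 3 and 5 were the highest of the 20 samples. DHCR7 gave -0.47 (SE 0.0969, adjusted p = 0.00103), NSDHL -0.37 (SE 0.0966, adjusted p = 0.00720), CYP51A1 -0.37 (SE 0.0986, adjusted p = 0.00799) and LBR -0.26 (SE 0.0739, adjusted p = 0.0116). Since the unwounded groups enter both the interaction and the comparison of genotypes before wounding, these are not independent of the higher unwounded levels given above.

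In SREBP control INSIG1 gave -0.51 (SE 0.172, adjusted p = 0.0325) and SREBF1 -0.34 (SE 0.0962, adjusted p = 0.0110). INSIG1 was at 323, 326, 263, 316 and 233 in the GCN2KO HDW samples, which overlapped with the WT HDW values above. In fatty acid synthesis SCD gave -0.43 (SE 0.100, adjusted p = 0.00296), ACSS2 -0.26 (SE 0.0803, adjusted p = 0.0230) and ELOVL6 -0.25 (SE 0.0813, adjusted p = 0.0278). SCD stood at 11559 ± 1283 in WT unwounded and 15568 ± 378 in WT HDW, and at 17963 ± 1813 and 17999 ± 759 in the GCN2KO groups. MYLIP gave 0.57 (SE 0.101, adjusted p = 2.17e-04): it was at 384, 382, 402, 366 and 409 in GCN2KO unwounded samples, where WT unwounded samples were at 368 to 423. After HDW its mean was 295 ± 9.51 in GCN2KO and 199 ± 23.3 in WT cells. The exporters ABCG1 (-0.30) and ABCA1 (0.30) and the carrier STARD4 (-0.44) did not pass. Of the 13 genes that passed, 3 lost the call without a single library. INSIG1 did not pass without any of WT unwounded replicates 1, 3 or 5, WT HDW replicates 1, 3 or 4, GCN2KO unwounded replicates 3 or 4 or GCN2KO HDW replicates 3 or 5 (adjusted p 0.0531 to 0.0709). ELOVL6 lost the call without WT unwounded replicates 2 or 4, WT HDW replicates 1, 4 or 5, GCN2KO unwounded replicate 3 or GCN2KO HDW replicate 1 (adjusted p 0.0515 to 0.0594). For ACSS2 the call was lost without WT HDW replicate 5 (adjusted p 0.0539). The single call higher became 2 without WT unwounded replicate 5, GCN2KO unwounded replicate 4 or GCN2KO HDW replicate 5 and 3 without GCN2KO unwounded replicate 2. Without GCN2KO unwounded replicates 2 and 4, the GCN2KO unwounded libraries most like GCN2KO HDW ones, there were 5 higher and 16 lower, a choice that favours more calls. Among those that then passed were ABCA1 (0.51, adjusted p = 0.00669), LSS (0.42, adjusted p = 6.80e-04), FASN (0.41, adjusted p = 0.0228) and SREBF2 (0.22, adjusted p = 0.0187) on the higher side. STARD4 (-0.55, adjusted p = 0.0247), ACAT2 (-0.47, adjusted p = 0.0152), FDFT1 (-0.29, adjusted p = 0.00336) and EBP (-0.28, adjusted p = 0.0106) did so on the lower side. The LBR call was lost with library size alone (-0.20, adjusted p = 0.0573) and with no filter on low counts (-0.27, adjusted p = 0.0689), as were those of ACSS2 and ELOVL6, and that of INSIG1 was lost with library size alone.

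Averaged by role within each sample, the sterol synthesis genes stood at a mean log2 level of 0.20, 0.22, 0.43, 0.24 and 0.30 relative to WT unwounded in the 5 GCN2KO unwounded samples and at 0.17, 0.17, 0.18, 0.16 and 0.08 in the GCN2KO HDW samples. In WT HDW samples the same mean was 0.16, 0.02, 0.11, 0.16 and 0.15. All 15 samples of these groups lay above 0, the mean of the WT unwounded samples, and GCN2KO unwounded replicates 3 and 5 were the highest. The WT unwounded samples themselves ran from -0.05 to 0.03, so WT HDW replicate 2 (0.02) lay within their range. Sterol transport and export genes stood at -0.34, -0.10, -0.21, -0.30 and -0.31 in WT HDW and 0.51, 0.68, 0.53, 0.58 and 0.58 in GCN2KO unwounded samples, on opposite sides of 0. Their WT unwounded samples ran from -0.14 to 0.11, a range that holds WT HDW replicate 2, and their GCN2KO HDW samples from 0.32 to 0.40. Fatty acid synthesis genes stood at 0.26, 0.23, 0.24, 0.23 and 0.19 in WT HDW and 0.01, 0.06, -0.18, -0.01 and -0.20 in GCN2KO unwounded samples.

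**Figure D5:**
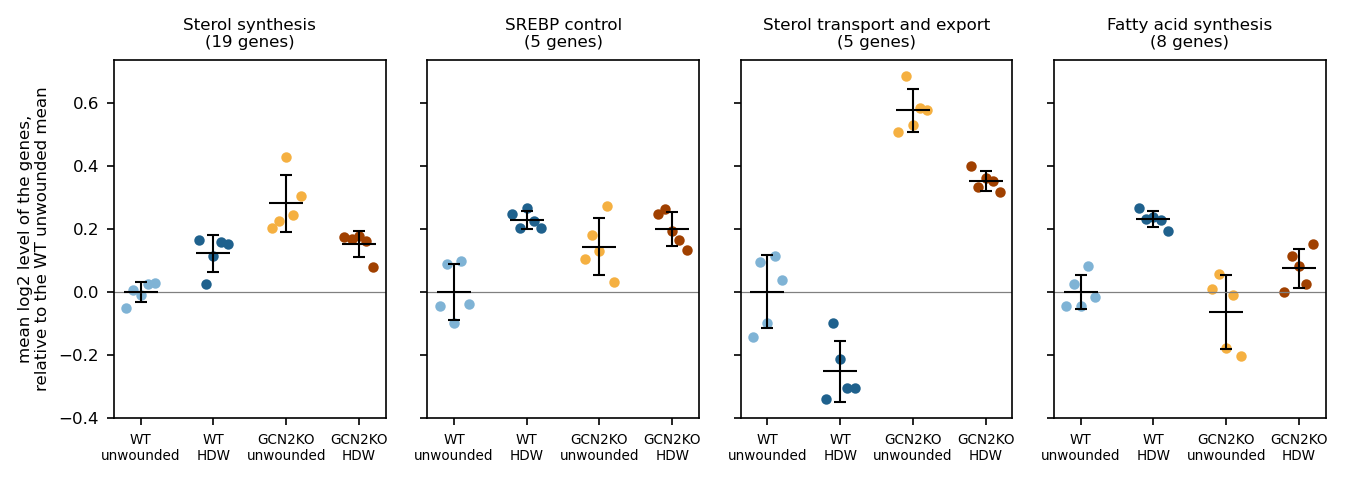
Mean log2 level of the genes of each role in each of the 20 samples, relative to the mean of the WT unwounded samples (pseudocount 0.5), with the mean and SD of each group of 5 as a black bar. Sterol transport and export genes lie below 0 in WT HDW and above 0 in GCN2KO unwounded samples, and no test was run on these means.

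Other genes of the same pathways were taken from fixed lists and are given for comparison. Over all genes tested, 33.4% were higher and 33.1% lower in GCN2KO against WT before wounding and 35.9% and 35.8% after HDW. The same shares were 26.1% and 25.2% for HDW in WT cells and 11.9% and 10.8% for HDW in GCN2KO cells. Of 8 genes of SREBP cleavage and INSIG turnover, 2 higher (25.0%) and 4 lower (50%) passed in GCN2KO against WT before wounding and 3 higher (37.5%) and 5 lower (62.5%) after HDW. For HDW, 1 higher (12.5%) and 3 lower (37.5%) passed in WT cells and 1 higher (12.5%) and 2 lower (25.0%) in GCN2KO cells. These held 0 DE genes. Of 13 genes of sterol sensing, uptake and storage, 4 higher (30.8%) and 6 lower (46.2%) passed in GCN2KO against WT before wounding and 4 higher (30.8%) and 7 lower (53.8%) after HDW. With HDW the counts were 4 higher (30.8%) and 5 lower (38.5%) in WT cells and 1 higher (7.69%) and 2 lower (15.4%) in GCN2KO cells. PLTP, a phospholipid transfer protein and LXR target, was at 4199 ± 107 in WT and 666 ± 76.6 in GCN2KO unwounded samples (log2 fold change -2.65, SE 0.0783, adjusted p = 5.41e-13). After HDW the PLTP log2 fold change was -2.64 (SE 0.0674, adjusted p = 5.67e-12). SCARB1, a receptor for high-density lipoprotein, had a log2 fold change of -1.39 (SE 0.0767, adjusted p = 2.97e-10) unwounded. NR1H3, which encodes the LXR alpha receptor, was at 85.6 ± 19.7 in WT and 239 ± 43.7 in GCN2KO unwounded samples (log2 fold change 1.46, SE 0.154, adjusted p = 4.31e-07). VLDLR, a lipoprotein receptor, was higher in GCN2KO unwounded cells by 1.03 (SE 0.112, adjusted p = 6.64e-07) and in WT cells after HDW by 1.23 (SE 0.0975, adjusted p = 6.84e-08), 2 values that share the WT unwounded samples. Its interaction was -1.45 (SE 0.136, adjusted p = 6.21e-08). Of 22 further fatty acid genes, 12 higher (54.5%) and 5 lower (22.7%) passed in GCN2KO against WT before wounding and 12 higher (54.5%) and 6 lower (27.3%) after HDW. In the HDW comparisons the counts were 8 higher (36.4%) and 6 lower (27.3%) in WT and 2 higher (9.09%) and 2 lower (9.09%) in GCN2KO cells. SCD5, a second stearoyl-CoA desaturase, was at 838 ± 69.9 in WT and 200.3 ± 26.5 in GCN2KO unwounded samples (log2 fold change -2.06, SE 0.0941, adjusted p = 4.51e-11). After HDW it differed by -1.79 (SE 0.0948, adjusted p = 1.80e-09), and both values were opposite in sign to those of SCD. ACSL5, an acyl-CoA synthetase at low levels (36.2 ± 12.0 in WT and 13.0 ± 3.96 in GCN2KO unwounded samples), had a log2 fold change of -1.39 (SE 0.262, adjusted p = 1.93e-04). The interaction counts were 1 higher (12.5%) and 1 lower (12.5%) for the 8 genes, 2 higher (15.4%) and 2 lower (15.4%) for the 13 and 3 higher (13.6%) and 6 lower (27.3%) for the 22, against 11.2% higher and 12.5% lower over all genes tested.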

How the data were processed

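RNA-seq read counts of 20 NTERT keratinocyte samples were used. The authors trimmed the paired reads with Trimmomatic, used STAR for alignment to GRCh38 and counted exon reads with a unique alignment per Ensembl gene with featureCounts, and deposited raw counts. Whether counting used strand was not given in the sources used here, so counts of overlapping genes are uncertain. Samples were grouped by their labels. Library totals ranged from 14083504 to 34611570 (median 32243580). Each p-value and SE covers the spread between the samples.

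Counts were fitted with edgeR 4.0.16 (R 4.3.3) by the quasi-likelihood test, with TMM scaling and a filter of 10 counts per library (scaled to depth) and 15 in total. The 10 samples of each comparison were fitted alone and all 20 for the interaction. P-values were Benjamini-Hochberg adjusted over all genes tested, with thresholds of 0.05 and, for DE genes, a log2 fold change of 1. Symbols and positions came from GENCODE release 44 (56410 of the 57500 IDs matched and 1090 did not). Role means used log2(normalized count + 0.5). Promoters came from RefSeq (GRCh38.p14). Tables and plots were made with Python 3.11.15, numpy 2.4.6, pandas 2.3.3 and matplotlib 3.10.9. The fits were also run on simulated counts in which far fewer genes differed between groups than here. That run does not give the error rate for these data.

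The 37 genes and the other lists were chosen with earlier results of these data known. Any of the 37 that passed could be named, DE genes and EIF2AK4 were to be given in every sample, and other lists by counts and DE genes. The further genes given sample by sample were chosen after their values were seen: the 3 with the highest and the 3 with the lowest log2 fold change among those that passed in each comparison. A listed differentiation marker had no matching row. Alternatives were DESeq2 1.42.0, its size factors, library size alone, the filter dropped or raised to a mean of 50 counts, a replicate block, 1 fit of all 20 samples, a fold threshold, and each library left out in turn.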

Additional observations from a re-analysis of the deposited data

Results flagged for a closer look

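In 6 of the 148 sets of 5 samples (37 genes in 4 groups), 1 sample lay apart from the other 4 by Dixon's test at the 95% level, where chance gives about 1 in 20. These were PMVK in WT unwounded replicate 4 (626 normalized counts), LSS in WT unwounded replicate 5 (1709.9), EBP in WT HDW replicate 2 (815), ABCA1 and ABCG1 in GCN2KO HDW replicate 5 (1847 and 2045) and ACSS2 in WT unwounded replicate 4 (884). PMVK, ABCA1 and ABCG1 were high in those samples and LSS, EBP and ACSS2 were low.

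The difference after HDW differed between GCN2KO and WT cells, by the edgeR interaction term on the log2 scale, in 13 genes. It was higher in GCN2KO cells for MYLIP (0.57). It was lower for the sterol synthesis genes IDI1 (-0.66), MSMO1 (-0.61), HSD17B7 (-0.55), DHCR7 (-0.47), CYP51A1 (-0.37), NSDHL (-0.37) and LBR (-0.26), for the control genes INSIG1 (-0.51) and SREBF1 (-0.34), and for the fatty acid synthesis genes SCD (-0.43), ACSS2 (-0.26) and ELOVL6 (-0.25).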

How the results depend on the processing

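No log2 fold change of the 37 genes that passed turned direction under any alternative. With a log2 fold change of at least 1 required as well, 1 gene was higher and 0 lower in GCN2KO against WT in each state, and 0 and 0 in both HDW comparisons and the interaction. The median over the 37 genes for GCN2KO against WT was 0.33 unwounded without GCN2KO unwounded replicates 2 and 4, and after HDW it was 0.14 with library size alone and 0.047 to 0.145 when single libraries were left out. For HDW in GCN2KO cells, 3 to 7 genes were higher when single libraries were left out. For the interaction, 2 genes were higher with DESeq2, library size alone, a mean of at least 50 counts or the replicate block, 1 to 3 when single libraries were left out, and 5 without GCN2KO unwounded replicates 2 and 4; its median was -0.10 with library size alone, -0.21 to -0.13 with single libraries left out and -0.27 without those 2 replicates. Over all genes, 1880 were higher and 1706 lower for HDW in GCN2KO cells, against 1183 and 887 without GCN2KO HDW replicate 3, 1239 and 882 with the replicate block, and 2936 and 2856 without GCN2KO unwounded replicates 2 and 4. The cause of these shifts was not tested. Replicate numbers did not pair the samples (mean correlation of same-numbered deviations 0.0228, 0.0332, 0.0107 and -0.109 in the comparisons in the order above, with 1, 1, 3 and 0 samples closest to their own number). With the replicate block, 22 genes were higher and 7 lower in GCN2KO against WT unwounded, 16 and 10 after HDW, 19 and 5 in WT cells with HDW, 4 and 5 in GCN2KO cells with HDW (MSMO1, ACLY, HSD17B7 and FASN no longer passed) and 2 and 12 for the interaction. Library size alone moved the median of all genes by at most 0.06. Depth and 5 samples a group set the smallest difference that could pass.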
